A study of Mus musculus with 2 samples.

Results

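The lowest-scored boundaries are the 950 autosomal chromatin boundaries chosen by a deposited strength score under 0.25, out of 7435 boundaries in the list and 7035 on the 19 autosomes. They made up 13.5% of the autosomal boundaries (exact 95% interval 12.7 to 14.3%) and 28.8% of the 3302 autosomal boundaries that the authors classed as Weak. The cells were mature olfactory sensory neurons of adult MOR23-GFP mice, sorted by flow cytometry (gate P3) for expression of the receptor gene Olfr16 (MOR23). The labels give the tissue as olfactory epithelium, the sexes as mixed and no strain, list no further treatment or modification, and do not say how many animals were pooled. In situ Hi-C with DpnII and 1% formaldehyde was done on 28000 cells for replicate 1 and 24400 cells for replicate 2, which form 1 group. The authors called 1 boundary list on both replicates combined (GRCm38), so no boundary has a value per replicate or a known depth, and the sorted cell type cannot be checked with markers here.

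In Hi-C, a boundary is a position across which contacts are fewer than on either side. In mammals many boundaries are sites where the protein CTCF, bound to its motif in a given orientation, halts the loop-extruding cohesin complex, and others coincide with starts of active genes. Boundary scores in general grade how deep the drop in contacts is, though the formula of this one is not known here. Each olfactory sensory neuron expresses a single olfactory receptor gene, and its nucleus is known for contacts between receptor clusters of different chromosomes.

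The score chose these boundaries, so scores are given as description only. All 950 were classed Weak, with scores that began at 0.20, the lowest in the list, a median of 0.224 and quartiles of 0.211 and 0.237. The other 6085 autosomal boundaries had a median of 0.638. The 10 boundaries just under the threshold scored 0.2496 to 0.2499, and 2 of them had a protein-coding start within 10 kb. The 10 just above it scored up to 0.2509, and 2 of these had such a start as well, so the threshold cuts through a continuous range.

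The comparisons below use annotation and sequence, which the score rule did not use. An earlier comparison of Strong (0.5 or more) with Weak boundaries of the same list was known, so the differences from all other boundaries are not independent of it. The difference from the 2352 Weak boundaries scored 0.25 to under 0.5 was tested for that reason as well. Shares were compared by a Mantel-Haenszel odds ratio over the 19 autosomes and measures by a linear model with the autosome as covariate. All p-values are Benjamini-Hochberg adjusted over 26 tests (13 features, 2 comparisons). They treat boundaries as independent although neighbours share genes, and they measure differences within 1 pooled list, not between mice, so n is the number of lowest-scored boundaries. All 478887 autosomal 5 kb bins without undetermined bases served as the genome background.

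A set of 6 matches to the CTCF consensus is shown first, because such matches were less frequent at these boundaries than at the other autosomal ones. They lie in members with scores near the bottom of the list, and are written 5′ to 3′ on the strand of the match from the GRCm38 reference, with the 12 matching bases in capitals and 15 bases on each side.
chr2:68350822-68350863, minus strand, score 0.204, near Stk39: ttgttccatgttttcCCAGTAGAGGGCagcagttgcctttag
chr3:27122214-27122255, plus strand, score 0.205, near Ect2: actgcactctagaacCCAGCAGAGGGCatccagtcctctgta
chr6:129255146-129255187, minus strand, score 0.205, near Cd69: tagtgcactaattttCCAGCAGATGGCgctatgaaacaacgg
chr4:116004242-116004283, minus strand, score 0.208, near Faah: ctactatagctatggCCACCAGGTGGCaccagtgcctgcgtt
chr5:106977210-106977251, plus strand, score 0.208, near Cdc7: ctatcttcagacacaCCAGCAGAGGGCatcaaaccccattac
chr6:19446816-19446857, minus strand, score 0.209, near Ankrd7: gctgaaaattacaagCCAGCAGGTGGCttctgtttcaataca
The nearest protein-coding starts lay 117.3 kb (Stk39), 28.9 kb (Ect2), 15.4 kb (Cd69), 12.9 kb (Faah), 10.7 kb (Cdc7) and 578.7 kb (Ankrd7) from these boundaries. A match is a run of letters and not evidence of binding.

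A consensus match lay within 10 kb of 117 of 950 lowest-scored boundaries, 12.3% (exact 95% interval 10.3 to 14.6%), where 24% of all autosomal boundaries had one. The share was 25.8% of the other boundaries, 17.9% of the Weak boundaries from 0.25 and 30.8% of the Strong ones. Among the genome's bins it was 11.3%, which lies inside the interval of the lowest-scored boundaries. The odds ratio was 0.413 against all other boundaries (95% interval 0.337 to 0.506, adjusted p = 1.00e-17) and 0.660 against the other Weak boundaries (0.528 to 0.823, adjusted p = 0.00034, n = 950), and the share was lower in 19 and 16 of the 19 autosomes. With the threshold at 0.22, and so against Weak boundaries from 0.22, the second ratio was 0.723 and was not called. Of the 950 intervals, 27 held a match themselves. The share of all autosomal boundaries and of the genome's bins was not computed for this count, so it is not read against that background. For matches inside the interval, the odds ratio was 0.399 against all other boundaries (95% interval 0.269 to 0.592). Against the other Weak boundaries it was 0.594 (0.387 to 0.913), and both were called.

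Orientation of the matches was described within 50 kb of the boundary midpoints, without a test. To the right of the lowest-scored boundaries, 114 of 212 matches were on the plus strand (53.8%, exact 95% interval 46.8 to 60.6%), and to the left 86 of 222 (38.7%, 32.3 to 45.5%). The gap between the sides was 15 percentage points. It was 21.6 points at the Weak boundaries from 0.25 and 31.9 points at Strong boundaries. The plus strand was the more frequent one on the right and the less frequent one on the left in all 3 groups.

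Starts of protein-coding genes were also less frequent at the lowest-scored boundaries. A start was within 10 kb of 155 of 950, 16.3% (exact 95% interval 14.0 to 18.8%), beside 28.5% of all autosomal boundaries. The other boundaries reached 30.4%, Weak boundaries from 0.25 reached 24% and Strong ones 34.4%, while 17.2% of the genome's bins had a start as near. The odds ratio was 0.454 against all other boundaries (95% interval 0.378 to 0.544, adjusted p = 2.01e-17, n = 950), with a lower share in 19 of 19 autosomes. Against the other Weak boundaries it was 0.615 (0.504 to 0.751, adjusted p = 2.98e-06, n = 950), lower in 16 of 19. Inside the 5 kb interval itself, 49 of 950 lowest-scored boundaries held a start (5.16%, exact 95% interval 3.84 to 6.76%), beside 8.6% of all autosomal boundaries and 4.01% of the genome's bins. For starts inside the interval, the odds ratio against the other Weak boundaries was 0.702 and was not called.

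**Figure D1:**
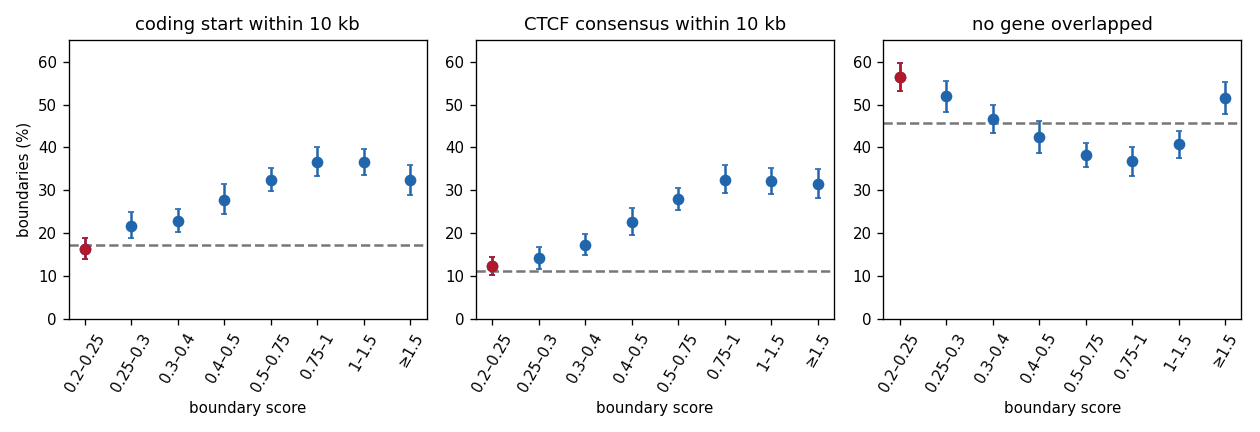
Share of autosomal boundaries (%, y axis) with a protein-coding start within 10 kb, with a CTCF consensus match within 10 kb and with no annotated gene overlapped, by boundary score (x axis); bars are exact 95% intervals, the red point is the lowest-scored class and dashed lines are the shares of all autosomal 5 kb bins. The lowest class sits at the dashed line for starts (16.3 against 17.2%) and near it for matches (12.3 against 11.3%), and above it for intervals without a gene (56.4 against 45.7%).

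Across score classes the share with a nearby start went up from 16.3% at scores under 0.25 to 21.8% at 0.25 to 0.3, 27.9% at 0.4 to 0.5 and 36.6% at 0.75 to 1, and was 32.3% at 1.5 or more. The share with a consensus match took the values 12.3%, 14.2%, 22.6%, 32.5% and 31.5% in the same classes. Intervals that overlapped no gene of any type made up 56.4% under 0.25, 51.9% at 0.25 to 0.3, 36.8% at 0.75 to 1 and 51.6% at 1.5 or more. The lowest and highest classes differed in their distance to genes, with a median of 118.4 kb to the nearest protein-coding start in the lowest class and 19.6 kb at 1.5 or more.

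The lowest-scored boundaries lay farther from genes than the other Weak and the Strong boundaries. The median distance to a protein-coding start was 118.4 kb (quartiles 22.2 and 410.6 kb) for them, 26.5 kb for the other boundaries, 49.5 kb for the other Weak ones and 70.1 kb for the genome's bins. On the scale log10(kb + 1) the difference was 0.50 from all other boundaries (95% interval 0.44 to 0.56, adjusted p = 2.15e-61) and 0.26 from the other Weak boundaries (0.20 to 0.33, adjusted p = 6.89e-15, n = 950). No coding start lay within 250 kb of the midpoint for 357 of 950, 37.6% (exact 95% interval 34.5 to 40.7%), beside 14.8% of all autosomal boundaries. That share was 22.2% for the other Weak boundaries, 4.34% for Strong ones and 24.4% for the genome's bins. A start was over 500 kb away for 191 of 950, 20.1% (exact 95% interval 17.6 to 22.8%), beside 7.31% of all autosomal boundaries and 11.9% of the genome's bins. The number of coding starts within 250 kb, on a log2(n + 1) scale, differed by -0.84 from all other boundaries (adjusted p = 1.02e-67) and by -0.46 from the other Weak ones (adjusted p = 2.03e-17, n = 950).

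**Figure D2:**
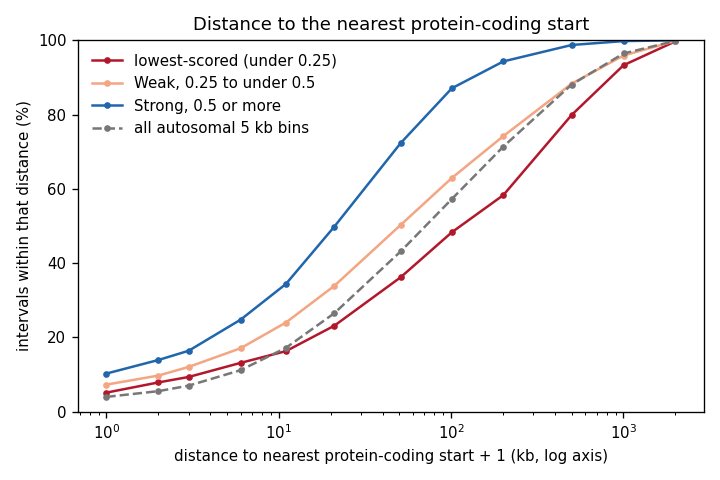
Cumulative share of intervals (%, y axis) within a given distance of the nearest protein-coding start (x axis, distance + 1 in kb, log scale) for the 950 lowest-scored boundaries, the 2352 other Weak boundaries, the 3733 Strong boundaries and all autosomal 5 kb bins (dashed). Within 100 kb, the shares are 48.3% for the lowest-scored boundaries, 62.9% for the other Weak ones, 87.1% for the Strong ones and 57.3% for the bins, so the curve of the lowest-scored boundaries runs below that of the genome at this range.

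The gene context followed the same order. No gene was overlapped by 536 of 950 lowest-scored boundaries, 56.4% (exact 95% interval 53.2 to 59.6%), beside 45.2% of all autosomal boundaries. The odds ratio was 1.66 against all other boundaries (adjusted p = 1.22e-12, higher in 19 of 19 autosomes) and 1.45 against the other Weak ones (adjusted p = 3.64e-06, higher in 18, n = 950). A protein-coding gene body was overlapped by 323, 34.0%, beside 45.8% of all autosomal boundaries, with odds ratios of 0.575 (adjusted p = 9.88e-14) and 0.648 (adjusted p = 1.28e-07, n = 950). A protein-coding exon, untranslated exons included, was overlapped by 189, 19.9%, beside 31.8% of all, with odds ratios of 0.50 (adjusted p = 1.12e-15) and 0.645 (adjusted p = 4.27e-06, n = 950). A coding gene's 3′ end was within 10 kb of 162, 17.1%, beside 27.4% of all, with odds ratios of 0.514 (adjusted p = 5.46e-13) and 0.697 (adjusted p = 0.00043, n = 950). The last of these was not called for ends inside the interval (odds ratio 0.890). Nor was it called with the threshold at 0.22, against Weak boundaries from 0.22 (0.751).

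Boundaries with only a noncoding start within 10 kb numbered 145 of 950 (15.3%), beside 17.1% of all autosomal boundaries. The odds ratios of 0.843 (95% interval 0.698 to 1.02, adjusted p = 0.11) and 0.860 (0.698 to 1.06, adjusted p = 0.18, n = 950) did not pass. Within 50 kb the direction turned, with ratios of 1.62 (adjusted p = 7.47e-10) and 1.24 (adjusted p = 0.015, n = 950). The feature requires that no coding start lies in the same window, and a coding start lay within 50 kb of 36.2% of the lowest-scored, 50.3% of the other Weak and 72.3% of the Strong boundaries, so the wider window is not separate from the lower share of coding starts. Genes longer than 200 kb were overlapped by 123 of 950 (12.9%), beside 12% of all autosomal boundaries and 17.1% of the genome's bins, with odds ratios of 1.09 (0.888 to 1.34, adjusted p = 0.46) and 0.835 (0.669 to 1.04, adjusted p = 0.15, n = 950). The length chosen decided the call: for genes over 500 kb the ratios were 1.43 (called) and 0.968 (not called), and for genes over 100 kb 0.926 (not called) and 0.771 (called).

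Base composition differed, while the density of cutting sites and the share of unique sequence did not pass the test. GC content averaged 40.9 ± 4.9% in the lowest-scored boundaries, 43.5 ± 4.8% in the other boundaries, 42.1 ± 4.9% in the other Weak ones and 41.9 ± 4.7% in the genome's bins (SD over intervals). The difference was -2.42 percentage points from all other boundaries (adjusted p = 1.93e-46) and -1.15 from the other Weak ones (adjusted p = 1.55e-09, n = 950). GATC, the site DpnII cuts, occurred 12.6 ± 4.5 times per lowest-scored interval and 12.6 ± 4.2 times per other interval, a difference of -0.03 sites (95% interval -0.34 to 0.27, adjusted p = 0.86, n = 950). Of sampled 50 bp words, 92.4% were unique in the genome at the lowest-scored boundaries and 93.2% at the others, a difference of -0.70 percentage points (-1.61 to 0.20, adjusted p = 0.16, n = 950).

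Because the lowest-scored boundaries lay in gene-poor stretches, each group was also set against the bins of its own 5 Mb windows, a description added after the first results were seen. Near a coding start were 16.3% of the lowest-scored boundaries where their windows averaged 15.5%, a ratio of 1.05. The ratio was 1.35 for the other Weak and 1.63 for the Strong boundaries. For the CTCF consensus the ratios were 1.20, 1.55 and 2.26 in the same order. The windows of the lowest-scored boundaries averaged 10.26% for the consensus, just under the lower limit of 10.29% of the interval around their own 12.3%. Coding exons were overlapped 0.973 times as often as in the windows, against 1.18 and 1.34 times for the other groups, and coding gene bodies 0.830, 0.979 and 0.986 times as often. With 5 Mb windows as strata, the test against all other boundaries gave odds ratios of 0.563 for coding starts (adjusted p = 8.01e-08) and 0.489 for the consensus (adjusted p = 1.20e-10, n = 950). On that footing the differences in distance (0.32, adjusted p = 2.45e-29), in starts within 250 kb (-0.54, adjusted p = 1.28e-38) and in GC content (-1.15 points, adjusted p = 8.73e-15, n = 950) shrank by more than 1.5 times and were still called. Against the other Weak boundaries they shrank by more than 1.5 times as well, to 0.17 (adjusted p = 5.30e-07), -0.29 (adjusted p = 8.29e-09) and -0.60 points (adjusted p = 0.00089, n = 950), and were still called.

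**Figure D3:**
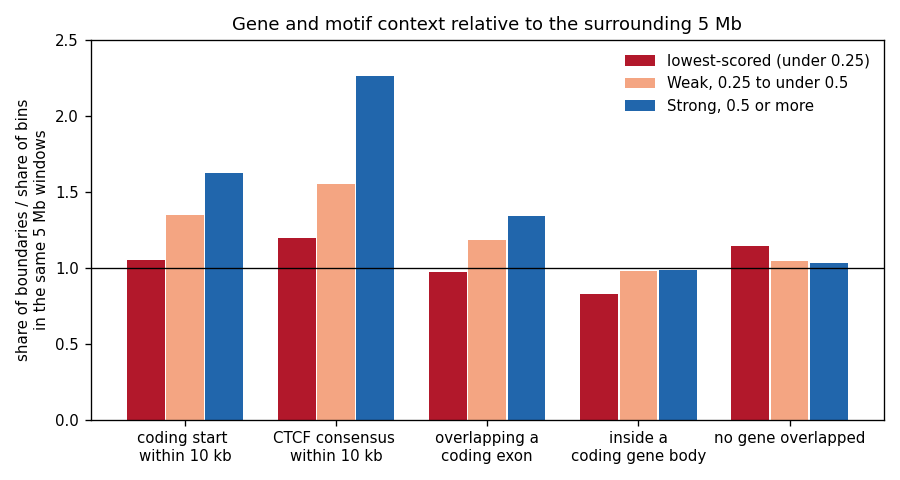
Share of boundaries with each feature divided by the mean share of 5 kb bins in the same 5 Mb windows (y axis) for the lowest-scored, other Weak and Strong autosomal boundaries; the line at 1 marks the level of the surroundings. For starts and CTCF consensus matches the lowest-scored boundaries stand at 1.05 and 1.20, against 1.63 and 2.26 for Strong boundaries.

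Position between Strong boundaries uses the scores and is described without a test. For 944 lowest-scored boundaries with a Strong boundary on both sides, the distance between these flanks had a median of 1485 kb, with quartiles of 669 and 2960 kb. For the other Weak boundaries the median was 985 kb. Stretches over 1 Mb held 61.1% of the lowest-scored boundaries (exact 95% interval 57.9 to 64.2%) and 49% of the other Weak ones. The nearer Strong flank was a median of 342.5 kb away, against 280 kb for the other Weak boundaries. On a relative scale, where 0 is a flank and 0.5 the middle, the lowest-scored boundaries had a median of 0.315 and the other Weak ones 0.336. The middle part of the stretch, from 0.25 to 0.5, held 64.2% of the lowest-scored boundaries (61.0 to 67.3%) and 72.3% of the others (70.4 to 74.1%). With flanks scored 1 or more these shares were 56.7% (53.5 to 59.9%) and 60.4% (58.4 to 62.4%), with overlapping intervals. By distance between the flanks, the medians of relative position were 0.382 and 0.406 for flanks up to 500 kb apart, 0.323 and 0.343 from 500 kb to 1 Mb, and 0.282 and 0.293 above 1 Mb. Within 100 kb of a Strong boundary lay 36 of 944 lowest-scored boundaries, 3.81% (2.69 to 5.24%), against 2.18% of the other Weak ones (1.63 to 2.86%). At wider distances the order was the opposite, with 30.5% against 32.9% within 200 kb and 63.1% against 73.3% within 500 kb.

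**Figure D4:**
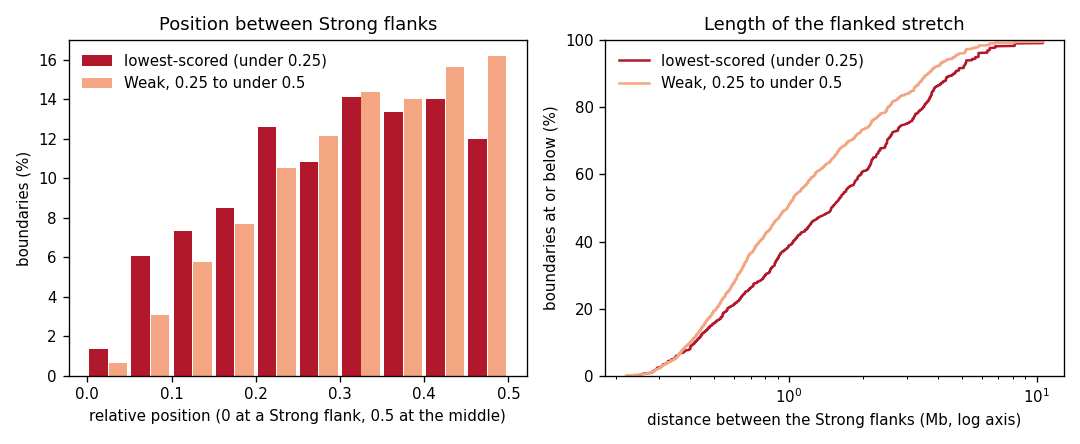
Left, relative position between the Strong boundaries on both sides (x axis, 0 at a flank and 0.5 at the middle) as a share of boundaries (%, y axis); right, cumulative share (%, y axis) by the distance between the flanks (x axis, Mb, log scale), for the 944 lowest-scored and 2337 other Weak boundaries that have both flanks. The lowest-scored boundaries have less of their number in the middle part on this relative scale (64.2%, against 72.3% of the others) and lie in longer stretches (medians 1485 and 985 kb).

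Of 3714 stretches between neighbouring Strong boundaries, 667 held at least 1 lowest-scored boundary and 157 held more than 1. Counted once each, the 667 stretches were a median of 965 kb long, the 1049 with other Weak boundaries alone 580 kb, and the 1998 with no Weak boundary 270 kb. Only 266 of the 667 held no other Weak boundary. A longer stretch has room for more Weak boundaries, so the order of these lengths is partly fixed by the sorting. At least 1 of the 2 neighbours of a lowest-scored boundary was another lowest-scored one in 257 of 948 cases with both neighbours present. That was 27.1% (exact 95% interval 24.3 to 30.1%), against 27% of the other Weak and 22.4% of the Strong boundaries. Neither neighbour was Strong in 31.8% (28.8 to 34.8%), against 23.8% of the other Weak boundaries (22.1 to 25.6%).

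The stretches with most members held few genes for their length. On chromosome 15, positions 13915001 to 24515000 held 21 Weak boundaries, 9 of them lowest-scored (0.213 to 0.242), and 5 coding starts; its longest gene is Cdh12, which encodes a cadherin, a calcium-dependent adhesion protein. On chromosome 8, positions 95930001 to 104080000 held 14 Weak boundaries, 8 of them lowest-scored (0.201 to 0.241), and 2 coding starts, with the cadherin gene Cdh8 as the longest gene. On chromosome 16, positions 78880001 to 84700000 held 10 Weak boundaries, 8 of them lowest-scored (0.209 to 0.249), and 5 coding starts. Its longest gene is Ncam2, an adhesion gene of olfactory sensory neurons and the only gene of the olfactory sensory neuron list with a lowest-scored boundary in its body. Bodies of that list held 1 lowest-scored boundary (0.105%), beside 11 of all autosomal boundaries (0.156%), so this count does not stand out from the background.

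The 10 lowest-scored boundaries had scores up to 0.2004 and varied in context. The lowest, on chromosome 4 at 117370001 to 117375000, lay in an intron of Rnf220, a ubiquitin ligase gene, between Strong boundaries 325 kb apart, and 6.30 kb from a consensus match. The second, on chromosome 18 at 13305001 to 13310000, overlapped a long noncoding RNA gene and lay 298.0 kb from the nearest coding start. On chromosome 2, 126005001 to 126010000 overlapped an exon of Fam227b, 24.7 kb from the start of Fgf7, a growth factor gene. Oat, which encodes ornithine aminotransferase, had an exon under the boundary at 132555001 to 132560000 of chromosome 7, 85 kb from a Strong flank; its start was 16.4 kb away, and the annotation there also gives an intron of Fgfr2, a fibroblast growth factor receptor gene. The boundary at 21970001 to 21975000 of chromosome 6 overlapped an exon of Ing3, a chromatin reader gene, 10.9 kb from the start of Cped1. Arhgef11 started 2.56 kb from the boundary at 87610001 to 87615000 of chromosome 3.

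The remaining 4 of these 10 were intergenic with no coding start within 50 kb. They lay 83.4 to 347.4 kb from the nearest one. Unique words made up 34% of the interval at 3415001 to 3420000 of chromosome 3, and 94% or more of each of the other 9. The 3 lowest-scored boundaries farthest from a coding start were all intergenic, at 2596 kb from Pcdh9 and 2066 kb from Olfm4 on chromosome 14 and 2364 kb from Cdh20 on chromosome 1. Pcdh9 and Cdh20 encode adhesion proteins of the cadherin superfamily. Consensus matches lay 20.4 and 21.2 kb from the first and last of them, and 1385 kb from the one near Olfm4.

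Of 953 autosomal coding genes longer than 200 kb, 123 held a lowest-scored boundary and 8 held more than 1, while 601 held an autosomal boundary of any score. Lsamp, a 2197 kb gene for a neuronal adhesion protein, held 3 (0.202 to 0.249) beside 1 other Weak and 3 Strong boundaries. Gpc5, a proteoglycan gene, held 2 (0.201 and 0.213), as did Wwox, an oxidoreductase gene (0.232 and 0.244), and Rora, a nuclear receptor gene (0.224 and 0.237). Iqcm (0.206 and 0.219), Khdrbs2 (0.202 and 0.230), which encodes an RNA-binding protein, and Kif16b (0.238 and 0.239), a kinesin gene, held 2 each. Of the 59 autosomal genes of a list of long adhesion and synapse genes, the bodies took in 26 lowest-scored boundaries, 2.74%, beside 1.49% of all autosomal boundaries. The shares were 2.17% for the other Weak and 0.75% for Strong boundaries. These counts by gene body were not tested and have no share of the genome's bins beside them. By starts within 10 kb, the measure used for the gene families below, the list had 1 lowest-scored boundary. That was 0.105%, beside 0.114% of all autosomal boundaries, a share near the background. Tenm2, a teneurin gene of that list, started 0.964 kb from a boundary scored 0.237 that lies in an intron of the gene on chromosome 11.

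The promoters of genes that start inside lowest-scored boundaries ranged widely in CG pairs, the sites of DNA methylation. The promoters with the fewest and the most CG pairs, among 6 named genes matched in RefSeq, are shown 5′ to 3′ on GRCm38 with CG pairs in capitals.
Adipoq, chr16:23146286-23146585, plus strand: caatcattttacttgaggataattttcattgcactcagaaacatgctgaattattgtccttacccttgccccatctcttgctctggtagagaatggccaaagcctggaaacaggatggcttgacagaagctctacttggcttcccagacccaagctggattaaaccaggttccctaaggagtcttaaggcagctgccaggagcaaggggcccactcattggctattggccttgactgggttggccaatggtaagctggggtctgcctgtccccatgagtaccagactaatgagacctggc
Rab5if, chr2:156862872-156863171, plus strand: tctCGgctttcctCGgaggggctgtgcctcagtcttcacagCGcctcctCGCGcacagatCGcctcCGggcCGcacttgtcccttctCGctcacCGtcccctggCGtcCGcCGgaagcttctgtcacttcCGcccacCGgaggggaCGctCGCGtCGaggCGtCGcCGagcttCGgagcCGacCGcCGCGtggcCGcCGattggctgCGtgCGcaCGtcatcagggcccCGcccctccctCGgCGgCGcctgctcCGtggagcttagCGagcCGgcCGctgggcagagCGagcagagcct
Adipoq encodes adiponectin, a hormone of fat cells, and its promoter held 0 CG pairs; that of Rab5if held 41. Both genes start in boundaries scored 0.201. The other genes starting inside the 8 lowest-scored boundaries that hold a start were Zfp438, Mpv17, Ypel5, Stim2, Ireb2 and Bcas1. Stim2 encodes a calcium sensor of the endoplasmic reticulum, Ireb2 an iron regulatory protein and Mpv17 a mitochondrial membrane protein. For all 55 coding genes that start inside a lowest-scored boundary, the 300 bases from 250 before to 50 after the start held a median of 18 CG pairs (quartiles 9.5 and 26). The medians were 18 for 187 genes inside the other Weak and 18.5 for 448 inside the Strong boundaries, against 12 for all 20807 autosomal coding genes. These counts were added after the first results were seen and were not tested.

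Gene families were counted by boundaries that have a member's start within 10 kb. Among genes that every cell uses, 1 lowest-scored boundary lay near a cytosolic ribosomal protein gene (0.105%, beside 0.37% of all autosomal boundaries), Rpl23a, at 1.42 kb from a boundary scored 0.240. Of boundaries near mitochondrial ribosomal protein genes, 0 were lowest-scored, 3 were other Weak and 12 Strong (0.213% of all). Near proteasome genes the counts were 0, 1 and 13 (0.199% of all). A count of 0 of 950 allows a share of up to 0.316%, so these zeros do not set the lowest-scored boundaries apart from the background.

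Olfactory receptor genes started within 10 kb of 9 lowest-scored boundaries, 0.947%, beside 0.782% of all autosomal boundaries, a share near that background. The nearest were Olfr608 (0.124 kb, boundary score 0.211), Olfr504 (0.793 kb, 0.203), Olfr690 (0.897 kb, 0.236) and Olfr478 (1.01 kb, 0.238), all on chromosome 7. Vomeronasal receptor genes, which encode pheromone receptors, were near 4 lowest-scored boundaries (0.421%, beside 0.199% of all). Vmn1r193 started inside one, Vmn1r30 at 1.62 kb, Vmn1r204 at 1.80 kb and Vmn1r168 at 9.73 kb. Zinc finger genes were near 4 as well (0.421%, beside 0.412% of all), and Zfp438, Zfp800, Zfp871 and Zfp141 started inside the boundary. Cyp2a4 was the only cytochrome P450 gene near one, at 7.17 kb (1 of 11 such boundaries, 0.156% of all).

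None of 40 autosomal genes that act in olfactory sensory neurons started within 10 kb of a lowest-scored boundary. Near such a start lay 2 other Weak and 6 Strong boundaries (0.114% of all autosomal boundaries). That share is under the 0.316% that a count of 0 allows, so this zero does not set the lowest-scored boundaries apart either. No boundary of any score lay near the 20 genes of progenitors and immature neurons or the 17 of non-neuronal cells. Of genes for chromosome architecture, Hmgb1, a chromatin protein gene, started inside a boundary scored 0.232, and Pds5b, which encodes a cohesin regulator, 3.74 kb from one scored 0.224, both on chromosome 5. These were 2 of 6 boundaries near that list (0.0853% of all).

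The lowest-scored boundaries occurred on every autosome. Their share of a chromosome's boundaries averaged 13.5 ± 2.9% (SD over 19 autosomes). It was lowest on chromosome 19, with 16 of 185 boundaries (8.65%, exact 95% interval 5.02 to 13.7%), and on chromosome 11, with 39 of 409 (9.54%, 6.87 to 12.8%). It was highest on chromosome 16, with 50 of 267 (18.7%, 14.2 to 23.9%), and chromosome 14, with 54 of 303 (17.8%, 13.7 to 22.6%). Their density ran from 0.275 to 0.526 per Mb of determined sequence.

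**Figure D5:**
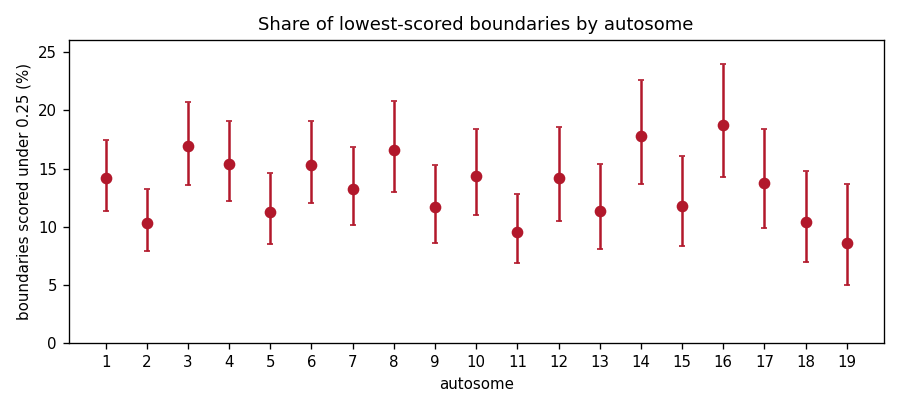
Share of each autosome's boundaries that scored under 0.25 (%, y axis) by autosome (x axis), with exact 95% intervals. The shares run from 8.65% on chromosome 19 to 18.7% on chromosome 16, and the intervals of most autosomes overlap.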

How the data were processed

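The deposited boundary list gives, for each 5 kb interval, a class and a strength score; the design text in the labels says that the authors derived it from the contact matrix of both replicates combined. The build is GRCm38, per the submitters' processing notes. The caller, its window, the score formula and the aligner are not named by the labels or the file, and the depth behind each boundary is unknown, so intervals cover counting error only. Intervals that scored under 0.25 on the autosomes were taken. The members, gene lists and tests were chosen with earlier results of these data known. Genes came from GENCODE release M21 (1 start per gene) and sequence from the GRCm38.p6 reference, whose chromosome lengths contained every interval. Coordinates are 1-based. Distances to starts, gene ends and consensus matches run from the interval's edge. Distances between boundaries run from start to start. Counts of starts within 250 kb and match orientation were taken from the midpoint. The CTCF consensus (12 letters) was searched on both strands. Words of 50 bp, 1 per 100 bp, were counted over the genome. Mantel-Haenszel odds ratios with the Cochran-Mantel-Haenszel test and linear models with HC3 errors were computed in Python 3.11.15 (scipy 1.17.1, statsmodels 0.14.6), two-sided, and tested on simulated data. Alternatives changed the score threshold, distances, strata, starts, gene length and motif. Named genes were those hosting or nearest the 10 lowest-scored boundaries, long genes with most members, up to 4 list genes nearest a member, starts inside the 8 lowest-scored boundaries that hold one, the 3 boundaries farthest from a start, and the longest gene of the 3 stretches with most members. Genes named beside the consensus matches only mark their place. The matches and promoters shown leave out chromosome 18. These examples and the chromosomes named were picked after the values were seen, by lowest score and extreme share. Of the genes hosting more than 1 member, 1 is not reported here.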

Additional observations from a re-analysis of the deposited data

Results flagged for a closer look

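Boundaries of the X chromosome lie outside the rule for the lowest-scored autosomal set and entered no comparison. There, 103 of 400 boundaries scored under 0.25, 25.8% (exact 95% interval 21.5 to 30.3%), against 13.5% of the autosomal boundaries. The higher share was flagged because no comparison used these boundaries. The difference was not tested, and the list comes from mixed sexes with an unknown depth behind each boundary.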

How the results depend on the processing

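No paired analysis was possible because the list pools both replicates and there is 1 group; no replicate could be left out. Of 26 tests, 18 passed, and 116 of the 120 alternative values for these kept direction and call. The other 4 concern comparisons with Weak boundaries. With the threshold at 0.22 the reference ran from 0.22 to under 0.5, and coding gene ends (odds ratio 0.751) and the consensus (0.723) were not called. Against the Weak boundaries of 0.25 to under 0.5, coding starts (0.702) and gene ends (0.890) inside the interval were not called. The cause was not tested. Each change of the score threshold moved the lower limit of both reference groups with it. Members under 0.30 gave a called odds ratio of 1.20 for genes over 200 kb and a called difference of -1.23 points in unique sequence against all other boundaries. Genes over 500 kb gave 1.43 against all others (called), and genes over 100 kb gave 0.771 against the other Weak ones (called) and 0.926, the other direction, against all others. Noncoding starts turned direction against all others within 25 kb (1.07) and 50 kb (1.62), and against the other Weak ones within 50 kb (1.24). Uncalled differences in unique sequence turned sign, to 0.11 with 5 Mb strata against all others, and against the other Weak ones to -0.61 under 0.30, -0.053 without strata and -0.24 with at least 60% unique sequence. With flanks of 1 or more, the middle part held 56.7% of members and 60.4% of the other Weak boundaries, a smaller gap. The degenerate form of the consensus lay near 90.7% of all autosomal boundaries and gave odds ratios of 0.342 and 0.570, both called. The depth behind each boundary is unknown, and its part in the scores was not tested.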
